A study of Mus musculus with 5 samples.

Results

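Matrix fibroblasts were followed through single-cell RNA libraries of mouse mammary tumours. The cells were chosen by their own UMI counts of 15 genes: a cell was counted as a matrix fibroblast when 4 conditions held for its unique molecular identifiers (UMIs, each a captured transcript molecule), scaled to 10000 per cell. The sum of Col1a1, Col1a2 and Col3a1 had to be at least 30, the sum of Krt8, Krt18 and Epcam below 8, Rgs5 below 5, and the sum of Cilp, Thbs4, Lrrc15 and Tnc above that of Clec3b, Efemp1, Dpt and Tnxb. Of 15958 deposited cells, 488 met these conditions. The same first 3 conditions were met by another 708 cells, called the other fibroblasts below, of which 675 had the higher sum of Clec3b, Efemp1, Dpt and Tnxb and 33 had equal sums. The 15 genes of the conditions chose the cells, so their levels in these cells are a description and support nothing.

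The study compared single-cell platforms on PyMT tumours, a mouse model of breast cancer driven by the polyoma middle T oncogene in mammary epithelium. Each tumour was digested to single cells and enriched for viable ones. The 2 fresh 10x libraries and the stored 10x library were made with the droplet system 10x Genomics 3' v2, and BD 1 and BD 2 with the microwell system BD Rhapsody and its whole transcriptome assay. Stored 10x came from a digest kept at 4 °C, for 24 h by its title and overnight by the protocol, until flow cytometry showed a loss of viability of at least 20%. BD 1 is fresh by its title. BD 2 is fresh by its title and 24 h by the names of its files, so no storage state was assumed for it and it forms a group of its own. The labels used here give no strain, age, sex, transgene promoter or number of mice per library. Nothing says that the fresh 10x libraries came from separate animals, so a p-value measures only the spread between these 2 libraries, which may be technical.

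Matrix fibroblasts of tumours make the collagens and glycoproteins that fill the space between the cells. Cilp encodes cartilage intermediate layer protein and Thbs4 encodes thrombospondin 4, both secreted into this matrix. Lrrc15 encodes a membrane protein induced by transforming growth factor beta (TGF-beta) that marks fibroblasts of many carcinomas, and Tnc encodes tenascin C, a glycoprotein of remodelling stroma. Clec3b, Efemp1, Dpt and Tnxb mark adventitial fibroblasts, which line vessels and tissue planes and carry genes such as Pi16 and Dpp4.

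In the text below, values in a series of 5 stand in the order fresh 10x 1, fresh 10x 2, stored 10x, BD 1 and BD 2, and levels are UMIs per 10000 UMIs summed over the cells of a class. The libraries held 29166129, 30027178, 53381382, 59957945 and 49966022 UMIs. The 488 matrix fibroblasts held 2134400, 1320280, 939719, 1837010 and 926005 UMIs, with medians of 12376, 14367, 12601, 16681 and 12858.5 UMIs per cell and 3.82, 4.03, 4.14, 6.33 and 8.35% mitochondrial UMIs. The fresh 10x pair shared 1 cell barcode, each of them shared 1 or 5 with stored 10x, and the BD pair shared 24, with 0 identical cells in any pair. The matrix fibroblasts of the fresh pair were no duplicates: over 6708 genes their counts had a chi-square of 3.07 per degree of freedom. Their median absolute log2 difference was 0.18, and 0.880% of genes differed by over 2-fold.

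Matrix fibroblasts were the larger fibroblast class in fresh 10x and the smaller one in the other 3 libraries. They numbered 165, 87, 75, 97 and 64. As a share of collagen-gated cells this was 76.4% (exact 95% interval 70.2 to 81.9) and 64.0% (55.3 to 72) in fresh 10x, 25.3% (20.5 to 30.7) in stored 10x, 29.8% (24.9 to 35.1) in BD 1 and 28.7% in BD 2. The intervals cover counting error only, and those of fresh 10x lay above those of stored 10x and BD 1. The difference from the fresh mean of 70.2% was -44.8 percentage points for stored 10x and -40.3 for BD 1, against a standard deviation (SD) of 8.78 points between the fresh libraries. Of all cells, matrix fibroblasts made up 7.95, 4.52, 1.88, 2.57 and 1.53%. The differences from the fresh mean of 6.24% (SD 2.43, n = 2) were -4.36 points for stored 10x and -3.66 for BD 1. No test was made, since stored 10x and BD 1 are 1 library each. Among the collagen-gated cells of fresh 10x, 16 and 11 had equal sums, with medians of 266 and 210 UMIs, and they count among the other fibroblasts.

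**Figure D1:**
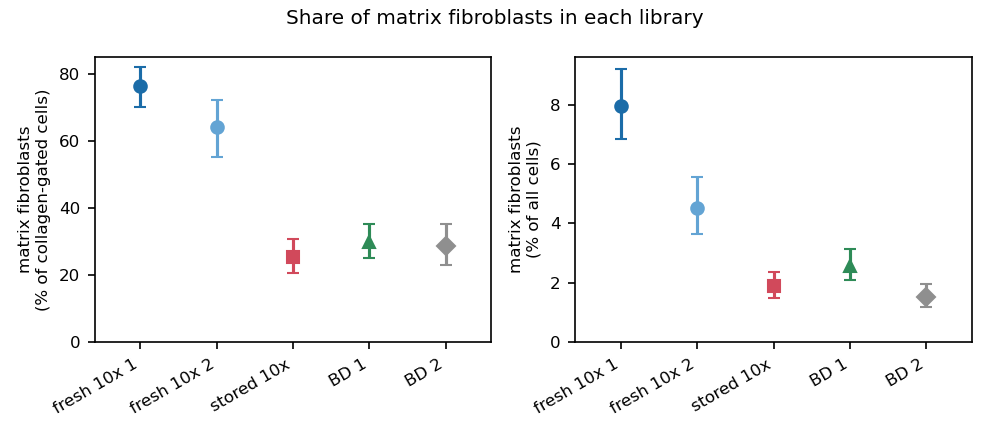
Share of matrix fibroblasts in each library, as percent of collagen-gated cells (left) and of all cells (right). Points are libraries and bars are exact 95% binomial intervals, which cover counting error only. On the left the fresh 10x libraries stand at 76.4 and 64.0% and the other 3 between 25.3 and 29.8%.

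Sums of the 4 conditions' genes separated most cells widely. The median matrix sum of the matrix fibroblasts was 27.4, 29.1, 39.7, 53.6 and 50.2 per 10000 UMIs. Their median adventitial sum was 0.536, 0.737, 2.38, 8.46 and 9.95, so the matrix fibroblasts of BD 1 and BD 2 carried more of the adventitial gate genes than those of fresh 10x, with stored 10x in between. Cells at 0 for all 4 adventitial genes numbered 80, 38, 22, 14 and 11. Near the line between the classes, within 2 per 10000 of equal sums, there were 2, 3, 0, 3 and 2 matrix fibroblasts, and 2, 2, 2, 1 and 1 of the other cells with a higher adventitial sum. Of the matrix fibroblasts 1, 0, 1, 0 and 1 had a collagen sum from 30 to 50, and 0, 2, 1, 0 and 1 cells that met the other conditions had one from 15 to 30.

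Markers of the label were then measured. Postn, encoding periostin, and Col8a1, encoding a chain of short-chain collagen VIII, are markers that the conditions did not use. They were named with the label, with earlier results of these data known, so their levels describe the class and are no independent check. Postn had UMIs in 100, 97.7, 97.3, 99.0 and 95.3% of matrix fibroblasts. Its level was 53.7, 52.7, 71.4, 51.7 and 41.9 in matrix fibroblasts and 19.3, 18.3, 15.6, 10.9 and 10.0 in the other fibroblasts. Col8a1 stood at 10.8, 11.8, 15.4, 16.5 and 15.8 against 1.54, 1.52, 1.92, 1.59 and 1.11. Both were higher in matrix fibroblasts in every library. The fibroblast receptor Pdgfra had UMIs in 87.3, 93.1, 80.0, 88.7 and 76.6% of matrix fibroblasts, against 2.35, 2.72, 4.57, 5.93 and 4.28% of keratin-gated cells, whose medians were 11944.5, 12624, 10296.5, 13304 and 10195 UMIs. Cilp is a gene of the conditions, so its values are a description and no check of the label. It had UMIs in 87.3, 82.8, 94.7, 99.0 and 90.6% of matrix fibroblasts. In keratin-gated cells, which should lack it and which the conditions leave out, the share was 2.28, 1.70, 3.75, 4.24 and 1.87%. Comp, which encodes another thrombospondin of cartilage and tendon, was close to absent, with 1, 2, 6, 0 and 0 UMIs in these cells.

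Markers of other cell types were measured as summed levels. The 9 epithelial markers outside the conditions summed to 2.76, 3.46, 9.45, 5.25 and 4.45 per 10000 UMIs, against 189 to 243 in all other cells. The 9 endothelial markers summed to 1.06, 0.750, 1.15, 0.539 and 0.626, against 4.67, 2.86, 0.977, 0.754 and 0.219 in all other cells, so they were higher in matrix fibroblasts in stored 10x and BD 2. The 9 mural markers (pericytes and smooth muscle) summed to 1.29, 1.01, 1.03, 1.42 and 1.91, with Higd1b at 0 in all 5 libraries, against 1.30, 1.33, 0.539, 0.857 and 0.713. Matrix fibroblasts thus had more mural marker UMIs than all other cells in stored 10x, BD 1 and BD 2. The 6 Schwann cell markers summed to 0.167 to 0.474, against 1.24 to 4.78. Adipocyte markers summed to at most 0.0213, with Plin1, Cidec and Lep at 0. The 4 erythroid markers summed to 2.09, 0.197, 0.255, 0.0381 and 0, against 0.0422, 0.660, 9.63, 1.16 and 2.19, with Hba-a2 at 0. The 10 macrophage markers summed to 0.450, 1.10, 2.29, 0.392 and 2.19, against 3.90 to 11.4 in all other cells. The 4 leukocyte markers summed to 0.0843, 0.0682, 0.383, 0.0381 and 0.410, against 0.966 to 2.78. Epithelial, macrophage and leukocyte sums were thus higher in stored 10x than in either fresh library. The 11 lymphocyte markers summed to 0.0319 to 0.302, with Klrb1c at 0. No doublet caller was run, and the part of doublets in these sums was not tested.

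Within the class, cells were led by different genes of the matrix sum. Cilp had the most UMIs of the 4 in 51 of 165, 30 of 87, 33 of 75, 61 of 97 and 40 of 64 cells, Thbs4 in 27, 10, 13, 17 and 9, Lrrc15 in 41, 20, 13, 5 and 7, and Tnc in 41, 25, 12, 13 and 4. Cilp-led cells were the most frequent kind in every library, and their share was larger in BD 1 and BD 2 than in fresh 10x. UMIs of all 4 genes were found in 73, 33, 32, 52 and 26 cells. Cilp stood at 11.7, 11.3, 22.8, 41.6 and 40.7 per 10000 UMIs in the class, Thbs4 at 7.58, 4.45, 9.48, 17.0 and 11.4, Lrrc15 at 6.45, 6.94, 6.50, 7.95 and 4.81 and Tnc at 10.9, 12.2, 10.4, 11.2 and 10.2. Tnc was nearly level across libraries, while Cilp had its lowest values in fresh 10x and its highest in BD 1 and BD 2. These 488 cells held 63.8 to 89.9% of the Cilp UMIs of a library, 73.9 to 97.8% of those of Thbs4, 73.0 to 95.5% of those of Lrrc15 and 61.4 to 86.1% of those of Tnc. The lowest of these shares were in stored 10x for all but Lrrc15, which was lowest in BD 2.

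**Figure D2:**
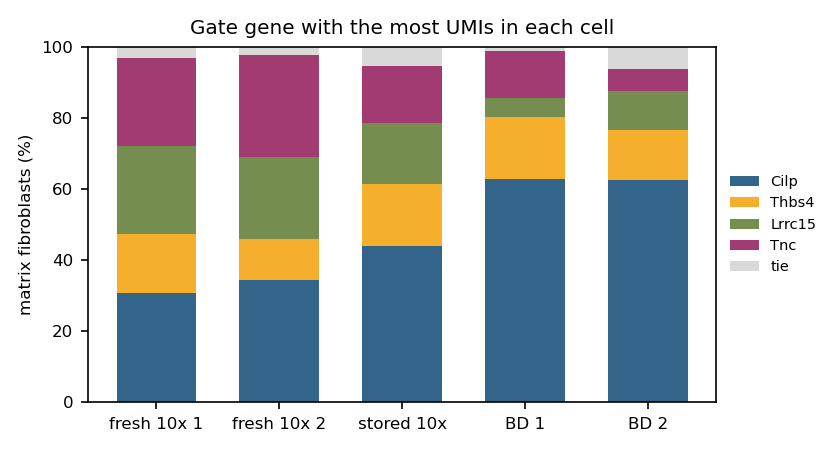
Percent of the matrix fibroblasts of each library in which Cilp, Thbs4, Lrrc15 or Tnc had the most UMIs of the 4 genes, with ties in grey. Cilp-led cells are 51 of 165 in fresh 10x 1 and 61 of 97 in BD 1, and Tnc-led cells are 41 of 165 and 13 of 97.

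Promoters of these 4 genes are shown because these genes define the class. They are the 250 bases before the transcription start in RefSeq (mouse GRCm38.p6), 5′ to 3′ on the gene's strand, with matches in capitals (a match on the opposite strand reads as its reverse complement). Both strands were searched for 4 motifs, and no window shown holds more than 1, so none overlap. The core of a TATA box was searched as TATAAA, the site of AP-1 factors as TGANTCA, and the core bound by Runx proteins as TGTGGT. The motif of serum response factor, the CArG box, was searched as CCWWWWWWGG, with W for A or T. No mismatch was allowed in any motif. The Cilp window is chr9:65264930-65265179 on the plus strand and holds TGTGGT on the opposite strand, 205 bases before the start. The Thbs4 window is chr13:92794819-92795068 on the minus strand and holds none of the 4. The Lrrc15 window is chr16:30283255-30283504 on the minus strand and holds TGANTCA 53 bases before the start. The Tnc window is chr4:64047016-64047265 on the minus strand, the first of 2 listed starts, and holds TATAAA 126 bases before the start.
Cilp: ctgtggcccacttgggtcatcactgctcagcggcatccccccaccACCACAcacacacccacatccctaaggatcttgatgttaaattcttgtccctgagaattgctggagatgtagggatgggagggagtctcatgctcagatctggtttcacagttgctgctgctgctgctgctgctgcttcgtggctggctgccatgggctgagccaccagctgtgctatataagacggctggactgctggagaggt
Thbs4: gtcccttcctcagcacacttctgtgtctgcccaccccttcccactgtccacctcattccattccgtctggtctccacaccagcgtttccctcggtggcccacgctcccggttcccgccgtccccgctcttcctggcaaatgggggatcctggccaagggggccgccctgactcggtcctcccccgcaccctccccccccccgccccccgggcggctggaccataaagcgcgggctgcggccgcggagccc
Lrrc15: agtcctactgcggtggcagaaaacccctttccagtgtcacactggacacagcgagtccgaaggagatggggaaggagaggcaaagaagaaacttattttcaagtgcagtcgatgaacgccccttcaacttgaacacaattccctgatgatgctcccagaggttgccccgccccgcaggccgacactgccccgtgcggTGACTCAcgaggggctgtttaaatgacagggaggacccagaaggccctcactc
Tnc: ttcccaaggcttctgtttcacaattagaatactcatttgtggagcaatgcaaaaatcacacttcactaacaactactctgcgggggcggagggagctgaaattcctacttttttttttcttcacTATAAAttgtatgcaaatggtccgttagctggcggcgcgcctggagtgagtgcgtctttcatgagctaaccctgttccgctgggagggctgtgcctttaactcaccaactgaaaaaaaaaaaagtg
Of 32851 mouse promoter windows of this length, 12.4% held TATAAA, 6.75% held TGANTCA, 14% held TGTGGT and 1.47% held a CArG box. Such a match is a description of letters and not a site of binding. Only exact matches are marked. The Cilp window holds tataag near its end, a letter off TATAAA, which was not counted.

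Cells led by Tnc had more contractile transcripts in fresh 10x than those led by Cilp. Acta2, encoding smooth muscle actin, stood at 14.0, 18.2, 6.13, 6.69 and 3.13 in Tnc-led cells and at 3.75, 1.16, 2.96, 3.07 and 3.06 in Cilp-led cells. Tagln, encoding transgelin, stood at 20.4, 29.0, 7.77, 3.39 and 0.893 in Tnc-led cells and at 7.06, 5.69, 6.23, 3.52 and 8.17 in Cilp-led cells, so it was lower in the Tnc-led cells of BD 1, by little, and of BD 2. The Tnc-led cells of BD 2 number 4. Cthrc1, a secreted collagen triple helix repeat protein, was at 14.0, 14.9, 19.3, 11.5 and 3.28 in Tnc-led cells and at 3.31, 4.29, 1.89, 1.40 and 0.997 in Lrrc15-led cells. It was higher in Tnc-led than in Lrrc15-led cells in every library. In Cilp-led cells Cthrc1 stood at 9.60, 7.54, 8.73, 5.17 and 5.29, below Tnc-led cells except in BD 2. Col8a1 was lower in Lrrc15-led cells (6.78, 8.46, 8.71, 1.94 and 1.33) than in Cilp-led cells (12, 11.2, 17.9, 17.1 and 17.4) in every library. The collagenase gene Mmp13 ran the other way, at 3.18, 6.97, 0.145, 3.76 and 12.3 in Lrrc15-led cells and at 1.52, 0.388, 0.0221, 0.466 and 0.113 in Cilp-led cells. Lrrc15-led cells number 5 in BD 1 and 7 in BD 2, so the values there rest on few cells. In stored 10x Mmp13 had 2 UMIs in Lrrc15-led cells and 1 in Cilp-led cells. These groups of cells were formed from their own UMIs and were not tested.

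Against the other fibroblasts of the same library, 158 of 6470 genes with enough UMIs were at least 2-fold higher in matrix fibroblasts in all 5 libraries (2.44%), and 128 were at least 2-fold lower (1.98%). A gene entered with at least 20 UMIs in either class of every library. The share of all genes higher or lower by any amount in all 5 libraries is not given. Counts by any amount in the lists below therefore have no background to be read against. The same UMIs chose the cells, so these ratios describe the class and carry no test. The median log2 ratio over all genes was 0.04.

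Collagens of the network and fibril-associated kinds stood apart within the class. Of the 10 network and basement membrane collagens measured, 3 were at least 2-fold higher in all 5 libraries and 0 lower, with a list median log2 ratio of 1.17. Of the 4 fibril-associated ones 2 were higher and 0 lower (median 1.38), and of the 5 fibrillar ones outside the conditions 1 was higher (median 0.80). Col11a1, a minor chain of fibrils common in desmoplastic tumours, was at 2.37, 3.14, 1.66, 2.74 and 1.76 in matrix fibroblasts against 0.173, 0.101, 0.0823, 0.0478 and 0.0660 in the others, a median log2 ratio of 4.70. Matrix fibroblasts held 11.3, 8.24, 2.39, 6.19 and 2.57% of the Col11a1 UMIs of a library, so most of them lay in other cells. Col12a1, which coats fibrils, was at 19.9, 23.9, 9.46, 11.4 and 10.2 against 3.98, 4.64, 2.09, 2.74 and 2.63 (median 2.17). In Col7a1, the anchoring fibril collagen, the class was at 0.731, 0.591, 0.394, 0.310 and 0.281, with a median log2 ratio of 3.90. Col8a2 stood at 1.06, 1.25, 0.947, 2.76 and 1.93 and had 0 UMIs in the others of fresh 10x 2. All 44 collagen genes together, the 3 gate genes included, made up 5.86, 5.59, 5.87, 9.81 and 9.44% of the UMIs of matrix fibroblasts and 5.49, 4.75, 4.31, 6.03 and 6.15% of those of the other fibroblasts. Matrix fibroblasts held 65.6, 52.5, 24.3, 33.6 and 28.3% of the collagen UMIs of a library.

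Matricellular genes, whose products sit in the matrix and act on cells, were mixed. Of 19 measured, 7 were at least 2-fold higher in all 5 libraries and 0 at least 2-fold lower, while 11 were higher and 3 lower by any amount in all 5 (list median 0.97). Spon1, encoding spondin 1, stood at 10.2, 8.85, 8.13, 12.4 and 9.49 against 1.28, 0.439, 0.700, 0.748 and 0.986 (median log2 ratio 3.54). Wisp1, a CCN family gene, stood at 1.99, 2.05, 2.06, 2.28 and 1.80 against 0.455, 0.523, 0.123, 0.185 and 0.175 (3.36). Mgp, which encodes matrix Gla protein, an inhibitor of calcification, was at 116, 82.9, 99.8, 65.2 and 38.7 against 20.6, 3.80, 16.2, 6.21 and 9.15 (2.62). The level of Spon1 and Wisp1 was nearly the same in all 5 libraries, while Mgp was lowest in BD 2. Smoc2, Ctgf, Postn and Spp1 were the other 4, with median ratios of 2.17, 2.15, 2.06 and 1.92. The 3 lower in every library were Nov (-1.39), Thbs3 (-1.23) and Fn1 (-0.92), which encodes fibronectin, and Cthrc1 changed side, at 9.53, 9.49, 9.48, 5.55 and 4.18 against 11.5, 12.4, 4.24, 2.74 and 3.05.

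Other matrix lists were mixed. Of 18 proteoglycans 2 were at least 2-fold higher in all libraries and 3 lower. Fmod, encoding the collagen-binding fibromodulin, was at 0.698, 0.560, 1.21, 1.26 and 1.14, a median log2 ratio of 4.51, while Ogn (osteoglycin) and Gpc3 (glypican 3) had medians of -1.93 and -1.79. Decorin (Dcn) was lower, at 35.7, 35.6, 43.5, 37.0 and 39.7 against 85.9, 99.3, 105, 76.2 and 77.3. Of 17 elastic fibre genes 0 were higher by that rule and 1 lower, Emilin2, and of 21 collagen processing genes 0 were higher and 1 lower, Pcolce2, an enhancer of procollagen C-proteinase. Serpine2, encoding protease nexin 1, a serine protease inhibitor, was at 17.1, 13.9, 12.7, 23.5 and 18.7 (median 3.34). Its list of 9 protease inhibitors had 2 higher, with Timp1 (1.72), and 1 lower, Serping1 (-1.09). Among 19 proteases 1 was higher and 4 lower, with Adamts5 (-1.96), Htra3 (-1.95) and Mmp3 (-1.45) among the lower. Mmp13 had UMIs in 38, 20, 9, 15 and 10 matrix fibroblasts and was listed at 0 in the other fibroblasts of both fresh 10x libraries and BD 2.

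Most contractile genes were higher in matrix fibroblasts in every library. Of 13 measured, 7 were at least 2-fold higher in all 5 and 0 lower by that rule, against 2.44 and 1.98% of all genes. By any amount 12 were higher in all 5, and the list median was 1.5. Acta2 was at 7.71, 8.34, 4.32, 3.95 and 3.07 against 0.65, 0.338, 0.403, 0.0891 and 0.0815 in the other fibroblasts (median log2 ratio 4.59). Tagln was at 12.1, 15.1, 5.91, 3.80 and 6.34 against 0.476, 0.287, 0.235, 0.0804 and 0.0931 (5.54). Both were high in fresh 10x and lower in the other 3 libraries. Tpm2, encoding beta-tropomyosin, was at 3.59, 5.03, 1.5, 0.898 and 0.713 (2.48), and Mylk, the myosin light chain kinase, Cnn2, Myl9 and Actn1 had medians of 2.40, 1.87, 1.55 and 1.5. Acta2 had UMIs in 66.1, 63.2, 62.7, 64.9 and 40.6% of the cells. Matrix fibroblasts held 48.7, 27.3, 21.2, 62.1 and 50.4% of the Acta2 UMIs of a library, so a large share of this transcript lay in other cells. The mural marker sums given above were level with or above those of all other cells in 4 of 5 libraries. In the other fibroblasts these markers summed to 3.16, 2.03, 1.54, 1.81 and 1.73, above matrix fibroblasts in every library but BD 2. The part of mural RNA in the contractile values was not tested. A CArG box was found before the start of 3 of the 15 contractile genes matched in RefSeq (18 in the list), Myl6, Myl9 and Cnn2. For Myl6 it lay before 1 of 2 listed starts. Acta2 and Tpm2 held no exact match to the pattern searched, and Tagln was not matched in RefSeq. The Acta2 window holds ccctatatgg and ccttgtttgg, each 1 letter off the pattern, which were not counted. Among all promoter windows 1.47% held an exact match, a share per window and not per gene.

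Of the TGF-beta ligands, receptors and targets, 4 of 20 were at least 2-fold higher in all 5 libraries and 1 lower (list median 0.37). The ligand genes Tgfb1, Tgfb3 and Inhba (activin A) were all higher. Tgfb3 stood at 1.20, 1.09, 1.45, 1.68 and 1.33 (median log2 ratio 2.37) and Inhba at 0.628, 0.674, 0.383, 0.278 and 0.691 (3.54). Tgfb1 was at 1.53, 0.969 and 1.65 on 10x and at 0.212 and 0.259 on BD Rhapsody, with a median ratio of 1.96. The target Pmepa1 was at 20.4, 20.8, 19.3, 13.8 and 12.4 (1.89), and the co-receptor Tgfbr3 was the lower one (-1.52). Among 23 transcription factor genes 3 were higher and 0 lower: Meox1 (2.35), Runx1 (1.94) and Runx2 (1.61). Runx1 stood at 5.12, 4.97, 4.16, 3.43 and 3.11 and Runx2 at 0.426, 0.424, 0.436, 0.506 and 0.302.

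Receptors and secreted signals differed too. Of 15 integrins and receptors 4 were higher and 1 lower, with the collagen-binding Itga1 at a median log2 ratio of 2.82, Itgbl1 at 1.94 and Itgb5 at 1.73. Of 10 Wnt pathway genes 3 were higher and 1 lower. The feedback inhibitor Nkd2 was at 1.49, 1.05, 1.09, 1.45 and 0.907 (3.27), and the secreted Wnt antagonist Sfrp4 was lower, at 0.164, 0.0606, 1.25, 0.680 and 1.39 against 7.86, 7.6, 8.98, 6.22 and 3.68 (-3.19). Igfbp2, encoding an insulin-like growth factor binding protein, was at 10.9, 11.9, 6.07, 3.58 and 1.47 against 1.54, 1.71, 0.123, 0.05 and 0.0776, the 1 higher gene of 9 in its pathway (4.21). Among 15 growth factors Pdgfa was higher (2.22), and Gdf10, Vegfd and Fgf7 were lower (-3.82, -3.27 and -2.38). In immediate early (10), glycolysis (14), endoplasmic reticulum (19) and cell cycle genes (11), 0 passed the 2-fold rule in either direction.

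Most adventitial genes and some inflammatory ones were lower. Of 21 adventitial genes outside the conditions 13 were at least 2-fold lower in all 5 libraries and 0 higher (list median -1.88). Ly6c1 was at 0.3, 0.727, 1.45, 3.43 and 2.93 (median log2 ratio -2.87) and Dpp4, a surface peptidase, at 0.0984, 0.136, 0.255, 0.8 and 0.529 (-2.77). Cd34, which was not among the 13, was at 0.539, 0.871, 2.37, 3.65 and 6.18 (-1.82). All 3 were lowest in fresh 10x. Pi16 was closer, at 5.53, 4.07, 7.65, 4.92 and 4.28 against 11.2, 13.4, 11.3, 9.95 and 6.44 (-1.02). Of 16 inflammatory genes 6 were at least 2-fold lower and 0 at least 2-fold higher in all 5 libraries (list median -0.35), and the chemokine gene Ccl2 was higher in all 5 by a smaller margin in some (median 1.33). Complement C3 was at 1.52, 1.39, 1.56, 2.12 and 2.25 against 18.5, 15.8, 20.5, 17.9 and 16.2 (-3.51). C4b and the chemokine gene Cxcl12 had medians of -2.59 and -2.67. Of the 14 fibroblast identity genes 1 was at least 2-fold lower in all 5 libraries, the collagen receptor Ddr2 (-1.23), and 0 at least 2-fold higher. By any amount 8 were lower and 2 higher in all 5, with a list median of -0.27. Pdgfra was among the 8, at 2.91, 3.19, 2.94, 5.10 and 3.51 against 3.55, 3.82, 4.41, 6.01 and 6.06, and Pdgfrb, the other receptor for platelet-derived growth factor, was higher (median 1.35).

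**Figure D3:**
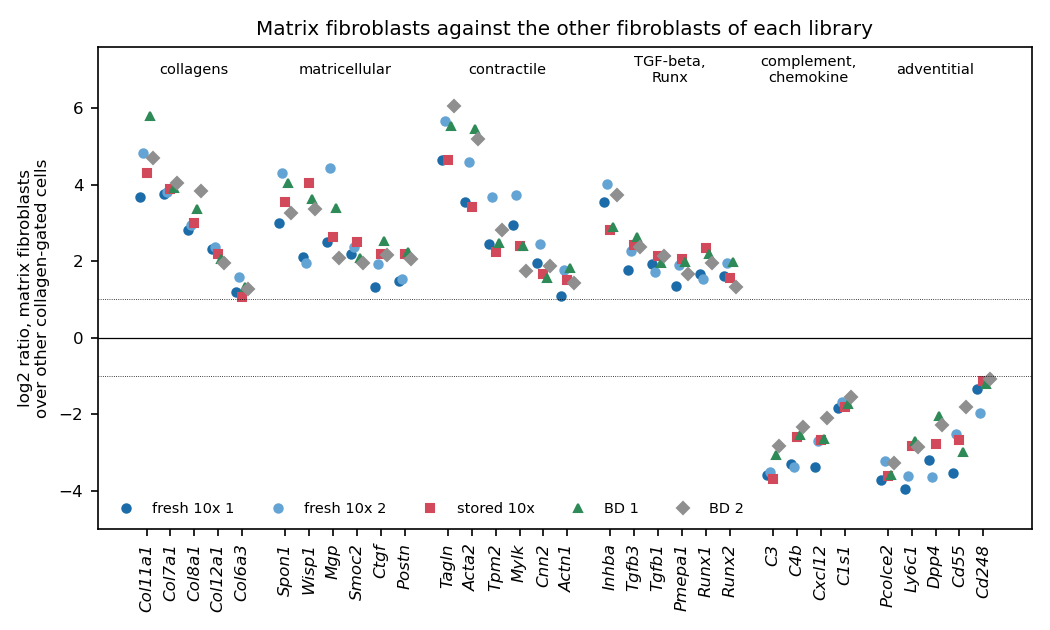
Log2 ratio of the level in matrix fibroblasts to that in the other collagen-gated cells of the same library, for genes of 6 groups. Each point is a library and the dotted lines mark 2-fold. Tagln lies above 4 in all 5 libraries, and the complement, chemokine and adventitial genes lie below -1.

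Outside the lists, the genes with the highest median ratios were Megf11 (6.30), 1500015O10Rik (4.83), Kif26b (4.81), Nes (4.81), C1qtnf3 (4.47), Sema7a (4.30), Crabp1 (4.27), Shc4 (4.27), Cd59a (4.17), Unc5c (4.13), Heyl (4.10) and Unc5b (4.02). Unc5b and Unc5c encode netrin receptors, Heyl a Notch target of the Hes family, Nes the intermediate filament nestin and Crabp1 a retinoic acid binding protein. Crabp1 stood at 5.61, 4.57, 2.98, 3.53 and 2.84 and C1qtnf3, a secreted C1q family protein, at 3.51, 4.55, 3.77, 4.73 and 4.28. 1500015O10Rik was at 13.8 and 15.5 in fresh 10x and at 4.42, 3.05 and 2.92 in the other libraries. The lowest ratios were those of Dmkn (-4.92), Fabp4 (-3.73), Adm (-3.67), Sbsn (-3.63), Prg4 (-3.61), Ptx3 (-3.50), Akr1c18 (-3.45) and Gda (-3.22). Prg4 encodes lubricin and Ptx3 pentraxin 3. Megf11 had 0 UMIs in the other fibroblasts of fresh 10x 2 and stored 10x, so its ratio depends there on the prior count of 0.5. Over 20 points, 4 cell classes in 5 libraries, the genes most like Cilp in log level among 4823 were Mfap4 (Pearson r 0.989), Fzd1 (0.986), Itgbl1 (0.985), Wls (0.984) and Cdh11 (0.983), as a description in which points share libraries and depth.

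Storage of the digest was addressed by stored 10x against fresh 10x. In the matrix fibroblasts of stored 10x the contractile genes Acta2, Tagln and Tpm2 and the collagen gene Col12a1 were lower, and Spon2, Cd34 and S100a4 were higher. Stored 10x is 1 library, so storage and sample cannot be told apart. Acta2, Tagln, Tpm2 and Col12a1 were lower and Cd34 was higher in BD 1 too, which is fresh by its title and is compared with the same fresh libraries. Of 10202 genes tested 281 passed edgeR's quasi-likelihood test at an adjusted p under 0.05 (2.75%), 172 higher (1.69%) and 109 lower (1.07%). With the stored group at 1 library, the spread comes from the fresh pair, on 1 residual degree of freedom. DESeq2 called 35 genes, all among the 281. With DESeq2's normalization inside edgeR 742 genes were called and the higher share of 61.2% became 50.4%.

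Of 14 contractile genes tested 4 fell in stored 10x, 0 rose and 10 did not pass the test, with a list median log2 fold change of -0.59 against -0.02 over all genes. Acta2 was at 7.71 and 8.34 in fresh 10x and 4.32 in stored 10x, which is -0.90 on the log2 scale (SE 0.14, edgeR adjusted p = 0.00675). Tagln was at 12.1 and 15.1 against 5.91 (-1.21, SE 0.16, edgeR adjusted p = 0.00219), and Tpm2 at 3.59 and 5.03 against 1.5 (-1.52, SE 0.22, edgeR adjusted p = 0.00417). In each of them stored 10x lay below both fresh libraries. Tpm4 was the fourth (-0.66), not called when BD 2 was grouped by its title, and of the 4 only Tagln was called by DESeq2. Across the other settings of edgeR, 3 to 8 contractile genes were lower and 0 or 1 higher. The share of Tnc-led cells, in which Acta2 was highest in fresh 10x, was 41 of 165 and 25 of 87 in fresh 10x and 12 of 75 in stored 10x, and its part in this result was not tested.

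Matricellular genes moved both ways, with 5 of 20 higher and 3 lower (median -0.17). Spon2, a spondin family protein, was at 0.211 and 0.348 in fresh 10x and 3.19 in stored 10x (log2 fold change 3.56, SE 0.22, edgeR adjusted p = 2.12e-05). In stored 10x 3 cells held 48.0% of its UMIs. Tgfbi (2.03), Thbs3 (1.22), Fn1 (0.65) and Postn (0.41) were the other 4 that rose. With BD 2 grouped by its title 2 of these genes were higher and 1 lower, and Postn, Fn1, Thbs3, Thbs1 and Thbs2 were not called. The antiangiogenic Thbs1 and Thbs2 fell by 1.60 and 0.77 on the log2 scale, and Spp1, encoding osteopontin, went from 16.9 and 26.7 to 9.28 (-1.24, SE 0.22, edgeR adjusted p = 0.0144). Spp1 was the 1 of the 3 that DESeq2 also called.

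Among collagens, Col12a1 went from 19.9 and 23.9 to 9.46 (-1.22, SE 0.14, edgeR adjusted p = 0.000879). It was the 1 gene called of 6 fibril-associated collagens, and DESeq2 called it as well. Of 13 network collagens 3 rose and 0 fell: Col18a1 (1.26), Col6a2 (0.73) and Col10a1, whose UMIs lay in 3 cells of stored 10x. Fmod was at 0.698 and 0.560 against 1.21 (0.92, SE 0.20, edgeR adjusted p = 0.0357). With BD 2 grouped by its title, Fmod, Col6a2 and Ppib kept their calls with both fresh libraries and lost them without fresh 10x 2 (0.77, 0.63 and -0.66). Of 23 collagen processing genes 3 rose, Loxl2, Fkbp10 and Loxl1, none of them called when BD 2 was grouped by its title, and 1 fell, Ppib. Of 17 elastic fibre genes 3 rose, with Ltbp4 at 0.651 and 0.712 against 2.13 (1.64, SE 0.17, edgeR adjusted p = 0.000430). Of 21 proteases Mmp13 alone was called, at 1.41 and 2.10 against 0.255 (-2.77, SE 0.32, edgeR adjusted p = 0.00104). Its UMIs lay in 38 of 165 and 20 of 87 cells of fresh 10x and in 9 of 75 cells of stored 10x.

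Of 21 adventitial genes 7 rose in the matrix fibroblasts of stored 10x, 0 fell and 14 did not pass the test (median 0.67). Cd34 was at 0.539 and 0.871 against 2.37 (log2 fold change 1.78, SE 0.23, edgeR adjusted p = 0.00216), in 49 of 165, 32 of 87 and 41 of 75 cells. Igfbp6 was at 3.99 and 4.45 against 9.32 (1.13, SE 0.13, edgeR adjusted p = 0.00104). Sema3c (1.73), Ly6c1 (1.57), Ly6a (0.86), Gsn (0.79) and Cd248 (0.74) were the rest. With BD 2 grouped by its title Ly6a was not called, and Cd248 was not called when fresh 10x 1 was left out as well (0.72). DESeq2 called Cd34 alone. The median adventitial gate sum of these cells, 2.38 in stored 10x against 0.536 and 0.737, moved with this group, and its part was not tested.

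Other stored differences were in single genes. S100a4, encoding a calcium-binding protein of fibroblasts and leukocytes, was at 0.347 and 0.659 against 1.95 (2.01, SE 0.27, edgeR adjusted p = 0.00276). Sfrp4 was at 0.164 and 0.0606 against 1.25 (3.32, SE 0.32, edgeR adjusted p = 0.000329), with 56.4% of its stored UMIs in 3 cells. Igfbp3 was at 3.62 and 4.79 against 1.40 (-1.59, SE 0.20, edgeR adjusted p = 0.00220), and Wnt5a, a ligand of noncanonical Wnt signalling, at 0.918 and 0.924 against 0.362 (-1.36, SE 0.23, edgeR adjusted p = 0.0115). Cav1, encoding the caveolar coat protein, was at 0.155 and 0.114 against 0.905 (2.69). The interferon-induced Isg15 and Irf7 were lower (-2.75 and -2.15), as were Cd59a (-1.99) and 1500015O10Rik (-1.74). Atf3 was the 1 of 10 immediate early genes that rose (1.52), and 0 of 27 transcription factors and 0 of 14 cell cycle genes were called.

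Some of the stored calls sat in a few cells or came with markers of other cells. The 3 class II antigen presentation genes Cd74, H2-Aa and H2-Ab1 rose by 4.04, 4.03 and 3.98, and 3 cells held 94.2, 98.2 and 97.1% of their stored UMIs. When cells with at least 5 per 10000 of leukocyte and endothelial markers were left out, their fold changes were 0.22, -0.03 and -0.23 and 0 of them was called. The chemokine gene Cxcl2 rose by 4.53 with 91.2% of its UMIs in 3 cells, and by 1.81 without those cells, no longer called. Of 7 epithelial markers tested 4 rose, Cldn3, Wfdc18, Spint2 and Csn3 (list median 2.06). Wfdc18 went from 0.726 and 0.735 to 3.08 and had UMIs in 75 of 75 stored cells. Cldn3 and Spint2 were not called when BD 2 was grouped by its title. The part of this epithelial RNA in the other differences was not tested.

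**Figure D4:**
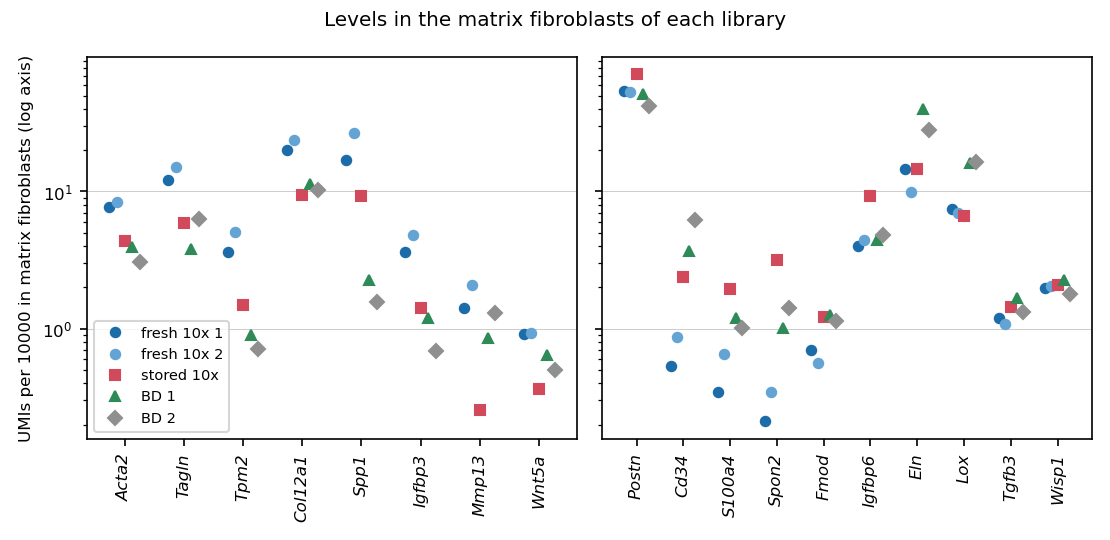
Levels in the matrix fibroblasts of each library, in UMIs per 10000 on a log axis, for genes lower (left) and for genes higher or level (right) in stored 10x or BD 1 against fresh 10x. Each point is a library. Acta2, Tagln, Tpm2 and Col12a1 lie lower in stored 10x, BD 1 and BD 2 than in both fresh libraries, and Wisp1 lies between 1.80 and 2.28 in all 5.

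The platforms were compared by BD 1 against fresh 10x, with storage not involved by the titles. Both comparisons use the same fresh libraries, so they are not independent. In BD 1 matrix fibroblasts had more transcripts of network collagens, elastin and adventitial genes and fewer of Tagln, Tpm2, Spp1 and Igfbp3. Of 10202 genes 3503 passed the test (34.3%), 1669 higher (16.4%) and 1834 lower (18.0%), and DESeq2 called 474. Counts within a gene list are read against these shares. Platform chemistry, annotation and sample cannot be told apart here.

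Of 13 network and basement membrane collagens 11 rose in BD 1 and 0 fell (list median log2 fold change 1.19, against 0.00 over all genes). Col6a2 was at 13.2 and 11.7 in fresh 10x and 49.0 in BD 1 (1.90, SE 0.11, edgeR adjusted p = 7.86e-07). BD 2, which did not enter this contrast, stood at 44.2. Col4a1 of basement membranes was at 5.28 and 5.97 against 13.2 (1.16, edgeR adjusted p = 5e-05), and Col12a1 was lower, at 19.9 and 23.9 against 11.4 (-1.01, SE 0.14, edgeR adjusted p = 0.000224). Col10a1, also among the 11, had its UMIs in 4 cells of BD 1 and 0 UMIs in BD 2. For Col11a1, at 2.37 and 3.14 against 2.74, no difference passed the test (-0.07, edgeR adjusted p = 0.781).

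Elastic fibre genes numbered 8 higher and 4 lower of 17. Eln, encoding elastin, was at 14.7 and 9.94 in fresh 10x and 39.9 in BD 1 (1.62, SE 0.18, edgeR adjusted p = 5.67e-05), and Lox, the lysyl oxidase that crosslinks collagen and elastin, was at 7.50 and 7.01 against 16.1 (1.07, SE 0.12, edgeR adjusted p = 5.95e-05). BD 2 stood at 27.9 for Eln and 16.4 for Lox, above both fresh libraries. Mfap4, the gene most like Cilp above, was at 8.38 and 8.62 against 16.6 (0.89). Ltbp2 was lower (-0.66), and with BD 2 grouped by its title this call was kept with both fresh libraries and lost without fresh 10x 1 (-0.48). Of 19 proteoglycans 9 rose and 2 fell.

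Contractile genes split, with 2 of 14 higher and 6 lower (median -0.30). Acta2 was at 7.71 and 8.34 against 3.95 (log2 fold change -1.10, SE 0.14, edgeR adjusted p = 0.000149). Tagln was at 12.1 and 15.1 against 3.80 (-1.91, SE 0.16, edgeR adjusted p = 1.15e-05), and Tpm2 at 3.59 and 5.03 against 0.898 (-2.33, SE 0.22, edgeR adjusted p = 2.43e-05). Actn1, which encodes the actin crosslinker alpha-actinin 1, ran the other way, at 1.71 and 1.80 against 4.21 (1.19, edgeR adjusted p = 9.63e-05). DESeq2 called these 4 in the same direction. Actg2, the enteric actin gene, had 37 and 34 UMIs in fresh 10x, 4 in stored 10x and 0 in BD 1 and BD 2.

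Of 20 matricellular genes 3 rose and 6 fell. Spp1 was at 16.9 and 26.7 in fresh 10x and 2.26 in BD 1 (-3.34, SE 0.25, edgeR adjusted p = 5.52e-06), and Thbs2 and Cthrc1 had fold changes of -1.15 and -0.85. Thbs1 was lower as well (-1.34), but it was not called with BD 2 grouped by its title, and its direction turned when fresh 10x 2 was left out as well (0.11). Postn was at 53.7 and 52.7 against 51.7, and no difference passed the test (-0.11, edgeR adjusted p = 0.367). Serine and metalloproteases were 6 higher and 4 lower of 21, with Plau, encoding urokinase, at 0.450 and 0.341 against 1.79 (2.07, edgeR adjusted p = 1.6e-05) and Mmp14, a membrane collagenase, at 4.88 and 5.89 against 11.3 (1.00, edgeR adjusted p = 0.000267). The inhibitor Timp1 was at 22.8 and 22.2 against 9.17 (-1.37, edgeR adjusted p = 1.4e-05).

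TGF-beta genes were 6 higher and 6 lower of 22. Tgfb1 was at 1.53 and 0.969 in fresh 10x and 0.212 in BD 1 (-2.65, SE 0.31, edgeR adjusted p = 8.93e-05), and stored 10x, on the same platform as fresh 10x, stood at 1.65. Tgfb3 was higher (0.47), and this call was lost when BD 2 was grouped by its title. Igf1 was at 5.37 and 5.35 against 10.0 (0.83, edgeR adjusted p = 0.000422), and Igfbp3, which binds its product, at 3.62 and 4.79 against 1.20 (-1.88, edgeR adjusted p = 4.59e-05). Of 27 transcription factors 10 rose and 5 fell, Runx1 among the latter (-0.63).

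Adventitial genes were higher in 13 of 21 and lower in 2 (median 0.91). Dpp4 was at 0.0984 and 0.136 against 0.8 (2.73, SE 0.25, edgeR adjusted p = 2.12e-05) and Cd34 at 0.539 and 0.871 against 3.65 (2.34, SE 0.21, edgeR adjusted p = 1.77e-05). BD 2 stood at 0.529 and 6.18, above both fresh libraries in each. The median adventitial gate sum of these cells was 8.46 in BD 1 against 0.536 and 0.737, and its part in these values was not tested. Thy1, the surface glycoprotein CD90, was at 0.796 and 1.23 on fresh 10x and 11.7 in BD 1 (3.48, SE 0.19, edgeR adjusted p = 6.26e-07), and of the 14 fibroblast identity genes 7 rose and 3 fell.

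Nuclear noncoding RNAs were lower in 5 of 5 (median -3.91). Malat1 was at 194 and 235 in fresh 10x and 7.78 in BD 1 (-4.86, SE 0.14, edgeR adjusted p = 9.98e-09). It was at 349 in stored 10x (0.70) and 8.80 in BD 2, so both BD libraries lay far below the 3 of 10x. Immediate early genes were higher in 5 of 10 and lower in 0, with Egr1 at a fold change of 1.57. The genes with the largest differences, such as Hgs, Igkc, Igha and Myoc (higher) and Cxcl9, Rnaset2a, Hist1h2ap and Actg2 (lower), were mostly listed at 0 on 1 platform, and the annotations of the platforms differ, so no fold is given for them.

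Whether the matrix fibroblasts differed from the other fibroblasts in these contrasts was tested as an interaction, with the library as a block. A positive value means that the change in matrix fibroblasts lay above that in the others. For stored 10x 39 of 11321 genes passed edgeR's test (0.344%), 26 above (0.23%) and 13 below (0.115%). For BD 1 there were 75 (0.662%), 59 above (0.521%) and 16 below (0.141%). This fit has 1 residual degree of freedom as well. In simulated data it recovered 8 and 6% of genes with log2 changes of 1 and -1, so a gene not called may still differ.

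Matricellular genes held 4 above and 1 below of 21 tested for stored 10x. Spon2 was at 1.62, 2.04 and 2.12 in the other fibroblasts of fresh and stored 10x, a change of 0.19 against 3.56 in matrix fibroblasts (difference 3.33, SE 0.31, edgeR adjusted p = 4.8e-09). Wisp1 was nearly level in matrix fibroblasts (0.03) and lower in the others (-2.0), a difference of 2.02 (edgeR adjusted p = 0.00346). Cthrc1 was level in matrix fibroblasts (-0.01) and went from 11.5 and 12.4 to 4.24 in the others (-1.51), a difference of 1.49 (edgeR adjusted p = 6.87e-05). Postn differed by 0.70 (edgeR adjusted p = 0.0281) and Spp1 by -2.08 (edgeR adjusted p = 1.36e-05), the latter being lower in matrix fibroblasts and higher in the others (0.86). The others of fresh 10x number 51 and 49 cells, of which 16 and 11 had equal sums.

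Of 9 insulin-like growth factor pathway genes 1 was above and 1 below, and of 17 elastic fibre genes 1 was above. Igfbp2 was lower in both classes, by less in matrix fibroblasts (-0.92 against -3.72, difference 2.80, SE 0.31, edgeR adjusted p = 2.52e-07). Igfbp5 was at 2.86, 1.5 and 5.51 in the others of fresh and stored 10x and at 10.5, 6.70 and 7.37 in matrix fibroblasts, a difference of -1.58 (edgeR adjusted p = 5.17e-05). Ltbp2, which encodes a latent TGF-beta binding protein of elastic fibres, changed by -0.10 in matrix fibroblasts and by -2.82 in the others (difference 2.74, edgeR adjusted p = 1.06e-05). Sfrp4, Cav1, S100a4 and Cd34, all higher in the matrix fibroblasts of stored 10x, differed by 3.19, 2.87, 2.11 and 1.42. Of 15 contractile genes 0 were called, with Acta2 at -0.64 (edgeR adjusted p = 1), so the lower contractile levels of stored 10x were not shown to differ between the classes.

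**Figure D5:**
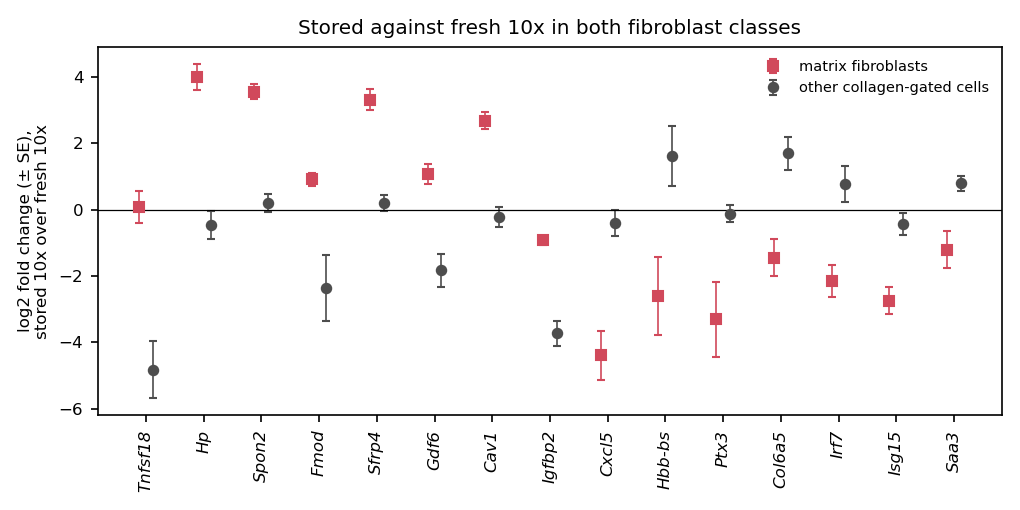
Log2 fold change of stored over fresh 10x with its standard error, in matrix fibroblasts (squares) and in the other collagen-gated cells (circles), for genes with the largest called differences between the classes and UMIs in both classes of every 10x library. Spon2 stands at 3.56 in matrix fibroblasts and at 0.19 in the others, and Igfbp2 at -0.92 and -3.72.

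For BD 1 against fresh 10x, matricellular genes were 6 above and 1 below of 21, elastic fibre genes 4 and 0 of 17 and adventitial genes 4 and 1 of 21. Eln was at 8.60 and 6.11 in the other fibroblasts of fresh 10x and 8.19 in BD 1 (0.01), against 1.62 in matrix fibroblasts, a difference of 1.63 (SE 0.19, edgeR adjusted p = 4.32e-07). Lox changed by -0.04 in the others and by 1.07 in matrix fibroblasts (difference 1.09, edgeR adjusted p = 0.00838). For elastin and its crosslinking enzyme the change in matrix fibroblasts lay above that in the others. Postn changed by -0.93 in the others and by -0.11 in matrix fibroblasts (difference 0.83, edgeR adjusted p = 0.00237), and Cthrc1 by -2.27 and -0.85 (1.43, edgeR adjusted p = 0.000109). Igfbp5 went from 2.86 and 1.5 to 14.1 in the others (2.56) and changed by 0.39 in matrix fibroblasts (difference -2.17, edgeR adjusted p = 4.98e-08). Acta2 was lower in both, by 2.57 in the others and by 1.10 in matrix fibroblasts (difference 1.47, edgeR adjusted p = 0.0483). Thy1 and Malat1 were not called, with differences of -0.06 and -0.12 (edgeR adjusted p = 1 and 0.999). The other fibroblasts of BD 1 were 227 adventitial cells of 228, against 35 of 51 and 38 of 49 in fresh 10x, the rest having equal sums. With the cells of equal sums left out, the 32 largest differences of both contrasts, listed further below, kept their direction. Other genes were not followed in that setting.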

How the data were processed

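Single-cell RNA counts of mouse mammary tumours were used, 3 libraries of 10x Genomics 3' v2 and 2 of BD Rhapsody. The deposited values are raw UMI counts per gene and cell, per the file headers and their whole-number values. Cell Ranger 3.0.1 and the build mm10 are named in the submitters' processing notes, with no role given, and processing of the BD libraries is not given in the sources used here. Deposited cells were kept without a filter, and no doublet caller was run. Gene names were merged across platforms to 41028, and 0 columns belonged to other samples.

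Cells were chosen by the 4 conditions of the report and their UMIs summed per library. The members and gene lists were chosen with earlier results of these data known. Sums were fitted with edgeR 4.0.16 (R 4.3.3) by its quasi-likelihood test, with TMM scaling, filterByExpr and Benjamini-Hochberg adjustment over all genes tested (threshold 0.05). Groups were fresh 10x (2 libraries), stored 10x, BD 1 and BD 2 (1 each), leaving 1 residual degree of freedom from the fresh pair. The interaction used both fibroblast classes with the library as a block. DESeq2 1.42.0 was an alternative. Ratios between classes used a prior count of 0.5. Shares have exact 95% binomial intervals. Scripts were tested on simulated data with known changes in BD 1, under Python 3.11.15. At log2 changes of 1 and -1 the test in matrix fibroblasts recovered 50 and 22% of changed genes, and the interaction 8 and 6%. At 2 and -2 these were 100 and 92%, and 78 and 60%.

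Named genes were the gate genes and label markers, list genes with 2 to 6 examples of the largest change among those with at least 20 UMIs in matrix fibroblasts of every library compared, the 12 highest and 8 lowest median ratios outside the lists, the 8 largest called differences each way per contrast, and the 5 genes most like Cilp. Other named genes were chosen after their values were seen. Alternatives were another normalization, DESeq2, no filter on low counts, other gates and cell filters, BD 2 grouped by its title, and leaving out each library.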

Additional observations from a re-analysis of the deposited data

Results flagged for a closer look

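The genes given here changed differently in matrix fibroblasts and in the other fibroblasts of the same libraries, by the interaction test of edgeR at an adjusted p under 0.05. They are the 8 largest differences each way in each contrast. Values are the log2 fold change in matrix fibroblasts minus that in the others.

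For BD 1 against fresh 10x the values above 0 were those of Car6 (6.37), Ccdc3 (6.26), Ptprb (5.40), Tnfsf18 (5.12), Kif26b (3.73), Igfbp2 (3.41), Lmcd1 (3.31) and Kcnk2 (3.16). Of the Car6 UMIs in matrix fibroblasts of BD 1, 93.2% lay in 3 cells. Ccdc3 had 0 UMIs in the matrix fibroblasts of both fresh libraries, and Ptprb 0 in the others of fresh 10x 2, so these 2 fitted values depend on the prior count. Below 0 were Cxcl9 (-8.44), Sc5d (-2.77), Plau (-2.46), Vegfa (-2.45), Igfbp5 (-2.17), Has2 (-2.09), Cdkn1a (-2.06) and Atf3 (-2.04). Cxcl9 had 0 UMIs in the matrix fibroblasts of BD 1. Plau and Has2 encode a matrix protease and a hyaluronan synthase, and Vegfa an angiogenic ligand.

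For stored against fresh 10x the values above 0 were those of Tnfsf18 (4.91), Hp (4.49), Spon2 (3.33), Fmod (3.32), Sfrp4 (3.19), Gdf6 (2.89), Cav1 (2.87) and Igfbp2 (2.80). Below 0 were Mmp13 (-8.93), Cxcl5 (-3.94), Hbb-bs (-3.86), Ptx3 (-3.10), Col6a5 (-3.03), Irf7 (-2.85), Isg15 (-2.28) and Saa3 (-2.18). Mmp13 had 0 UMIs in the other fibroblasts of both fresh libraries, so its fitted value is no measure of size. All UMIs of Hp in the matrix fibroblasts of stored 10x lay in 3 cells or fewer. The haemoglobin gene Hbb-bs had 96.3% of its UMIs of fresh 10x 1 in 3 cells.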

How the results depend on the processing

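Shares of matrix fibroblasts were lower in stored 10x and BD 1 than the fresh mean under all alternatives tried, from -38.6 to -51.1 and from -34.1 to -46.5 percentage points of collagen-gated cells, and from -2.64 to -6.08 and from -1.95 to -5.38 of all cells, when 1 library was left out. The count of 281 genes for stored 10x depended on the setting. It was 742 with DESeq2's normalization in edgeR, 635 with no filter on low counts, 697 in cells of at least 2500 UMIs, 694 in cells of at most 20% mitochondrial UMIs, 454 without cells rich in leukocyte and endothelial markers, 184 with BD 2 grouped by its title and 35 with DESeq2. Settings added after seeing the data gave 453 without Dpt in the gate and 728 with BD 2 left out. With BD 2 grouped by its title and 1 library left out it was 284 to 748. The share of higher calls, 61.2%, became 50.4% with that normalization, 50.1% without the filter, 50.8% with the depth minimum and 74.3% with DESeq2. For BD 1 the count of 3503 was 474 with DESeq2, 3845 with BD 2 grouped by its title, and 2840 to 4061 with that grouping and 1 library left out. The interaction counts of 39 and 75 became 65 and 108 with no filter.

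With the replicate number as a block, and BD 2 grouped by its title, 455 genes were called for stored 10x and 4255 for BD 1. The 2 numbered pairs correlated at 0.0465 in their deviations over 5226 genes. With 2 pairs and the storage state of BD 2 unknown, this value cannot show whether libraries of the same number share a source.

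For BD 1, with BD 2 grouped by its title, leaving out fresh 10x 2 turned C1qa to 0.72 and Thbs1 to 0.11, and leaving out BD 1, which sets BD 2 against fresh 10x, turned C1qa to 0.99, Thbs1 to 0.23, Axin2 to -0.32, Col10a1 to -5.50 and Inhba to 0.063. For stored 10x, leaving out cells with leukocyte and endothelial markers turned H2-Aa to -0.034 and H2-Ab1 to -0.23. The cause of these turns was not tested. Each left-out library was fitted with BD 2 grouped by its title, since leaving out a fresh 10x library otherwise leaves no residual degree of freedom. BD 2 was also left out of the fit with the main groups, where the fresh pair still gives the spread.

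Stored 10x and BD 1 are 1 library each, and the 2 fresh libraries alone set the spread. Matrix fibroblasts numbered 64 to 165 per library, so genes at the level of a few UMIs rest on few cells. In a share, fewer matrix fibroblasts and more of the other cells cannot be told apart.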
